A study of Mus musculus with 36 samples.

Results

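Olfr110, Olfr502, Olfr1110, Olfr1126, Olfr13, Olfr1463, Olfr214, Olfr30 and Olfr47 are 9 mouse olfactory receptor genes whose RNA was more abundant after most of the odors tested, and they are described here as broadly tuned receptors. They were chosen from the odor-against-no-odor values themselves, out of 1107 receptor genes and 57010 gene identifiers in the deposited count tables. All 9 passed the filter on low counts in every set of libraries. Their values against no odor are therefore a description and carry no test. The RNA came from the olfactory epithelium of wild-type C57BL/6J male mice aged 8 weeks, bound to ribosomes that an antibody against phosphorylated ribosomal protein S6 had pulled down. The 36 libraries formed 12 groups of 3 biological replicates; whether a library held 1 animal or a pool was not stated in the sources used here. After 4 h without odor, mice spent 90 min with filter paper bearing 10 µL of odorant, and the no-odor mice with filter paper bearing nothing.

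The groups formed 3 sets, which the labels give as batches. The AD set held an acetophenone-decanal mixture, acetophenone, decanal and its own no-odor mice. The OC set held a mixture of octanal and cis-3-hexenol, octanal, cis-3-hexenol and no odor. The FM set held a floral-mint mixture, a floral fragrance, a mint fragrance and no odor. Single odorants were undiluted. The binary mixtures were blended 1:1 in the same volume, so each component was present in a smaller amount than alone, and that cannot be told apart from an effect of mixing. What the fragrances contained was not given in the sources used here. No transgene or cell sort was used, and the pull-down was from whole tissue.

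A mature olfactory sensory neuron expresses a single receptor gene, and an odorant is read from the combination of neurons that it activates. The receptor couples to the G protein subunit encoded by Gnal, which drives adenylyl cyclase 3 and opens a cyclic nucleotide-gated channel. Activity in the neuron leads to phosphorylation of S6, so the pull-down enriches RNA of active neurons, the RNA of their receptor included. Many receptors answer few odorants, while broadly tuned ones answer odorants of unlike structure. Here the name rests on the number of odor groups in which a gene was higher than without odor, not on structure. In bulk tissue, more captured neurons of a type and more receptor RNA per neuron cannot be told apart.

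All 9 genes belong to the class II receptors, the larger class of the mammalian family. They lay on 6 chromosomes: Olfr110 on chromosome 17, Olfr1110 and Olfr1126 on chromosome 2, Olfr13, Olfr47 and Olfr214 on chromosome 6, Olfr1463 on chromosome 19, Olfr30 on chromosome 11 and Olfr502 on chromosome 7. The stretch around the Asp-Arg-Tyr motif, at the inner end of the third transmembrane helix where receptors of this family meet the G protein, is printed so that the 9 can be read side by side. Each line gives 69 bases of the coding strand, from the GENCODE vM21 transcripts of build GRCm38, with the 9 bases of the motif's place in capitals.
Olfr110: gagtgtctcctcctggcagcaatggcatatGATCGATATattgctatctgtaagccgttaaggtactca
Olfr502: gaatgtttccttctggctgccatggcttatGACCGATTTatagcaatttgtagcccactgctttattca
Olfr1110: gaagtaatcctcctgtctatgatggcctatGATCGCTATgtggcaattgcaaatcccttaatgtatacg
Olfr1126: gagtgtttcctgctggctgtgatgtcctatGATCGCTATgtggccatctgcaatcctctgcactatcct
Olfr13: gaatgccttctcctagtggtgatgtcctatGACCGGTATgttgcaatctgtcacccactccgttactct
Olfr1463: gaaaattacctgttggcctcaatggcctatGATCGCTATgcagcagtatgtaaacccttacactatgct
Olfr214: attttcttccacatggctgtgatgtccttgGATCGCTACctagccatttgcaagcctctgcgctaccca
Olfr30: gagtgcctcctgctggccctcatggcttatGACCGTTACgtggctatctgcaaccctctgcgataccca
Olfr47: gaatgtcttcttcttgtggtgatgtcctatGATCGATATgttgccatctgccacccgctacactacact

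The complete motif of 3 codons was present in 8 of the 9 genes. Olfr502 did not have it complete: its line shows the bases aligned to that place, where the codons for Asp and Arg are followed by TTT, which is not a Tyr codon. Among 1093 receptor genes with a reading frame of at least 290 codons, 839 (76.8%) had the motif between residues 100 and 150. The encoded proteins were 310 to 322 residues long and shared 36.1 to 68.4% of aligned residues with each other (median 43.9%). Olfr13 and Olfr47, on the same chromosome, were the closest pair at 68.4%, and the next pair, Olfr1110 and Olfr502, shared 49.5%. Every gene but Olfr30 had a receptor outside the group that was closer than 60% of residues. Olfr110 matched Olfr111 at 97.8% and was the only one with a near-identical transcript (at least 95% over 200 bases), so part of its reads could have been counted for Olfr111, which averaged 0.354 to 1.63 CPM (counts scaled to a common library size) over the 12 groups.

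Libraries held 16039587 to 26388104 counts, of which receptor genes took 0.225 to 0.706%. The 9 genes took a larger share of the receptor counts after most odors: on average 3.83% with the AD mixture, 8.27% with acetophenone and 2.15% with decanal, against 1.97% without odor in that set. In the OC set the mean share was 6.11% with the mixture, 5.66% in octanal and 5.91% in cis-3-hexenol libraries, against 1.73% without odor. In the FM set it was 5.03% with the mixture, 5.37% with floral and 3.89% with mint, against 1.76% without odor. The ranges overlapped between decanal and no odor alone, at 2.03 to 2.21% and 1.78 to 2.20%. The tissue was checked on 5 genes of mature olfactory sensory neurons, none of which was at 0 in any group. Their summed level was 10673 to 17617 CPM over the odor-exposed libraries apart from cis-3-hexenol, where it was 8212 to 10975 CPM, and 5753 to 11022 CPM over the no-odor libraries. In each set, every odor library exceeded every no-odor library in this sum. Summed hemoglobin and other red blood cell genes had medians of 36599 CPM with the AD mixture, 2891 with acetophenone and 39339 with decanal, against 16660 without odor. In the OC set the medians were 15039 CPM with the mixture, 14995 in octanal and 23567 in cis-3-hexenol libraries, against 82189 without odor. In the FM set they were 40485 CPM with the mixture, 58583 with floral and 40633 with mint, against 33918 without odor. Genes of other cell types moved too, some up and some down. The values that follow are examples and do not list every shift. In the OC set neutrophil genes summed to 61.9 to 124 CPM with the mixture, 51.4 to 129 with octanal and 170 to 201 in cis-3-hexenol libraries, against 296 to 384 without odor, and globose basal cell genes to 23.8 to 37.7, 33.5 to 40 and 36.9 to 55.5, against 48.6 to 61.3. Horizontal basal cell genes in that set summed to 29.9 to 41.6 CPM with the mixture and 29.4 to 37.2 with octanal, against 52.6 to 59.9 without odor. In the AD set they went the other way. They summed to 32.8 to 38.9 CPM with the mixture and 29.8 to 31.8 with decanal, against 20.9 to 25.1 without odor. Globose basal cell genes there summed to 55.6 to 69.9 CPM with the mixture and 60.9 to 70.5 with decanal, against 86.2 to 93.9. Sustentacular cell genes summed to 3193 to 3855 CPM with the FM mixture, 3167 to 3554 with floral and 3266 to 3881 with mint, against 4085 to 4797 without odor. In the OC set they summed to 2574 to 3212 CPM with cis-3-hexenol and 1209 to 1842 with octanal, against 1925 to 2166 without odor. Immature neuron genes summed to 1569 to 1837 CPM with the AD mixture and 1475 to 1675 with decanal, against 2044 to 2083 without odor. In the OC set they summed to 1040 to 1368 CPM with cis-3-hexenol, against 1416 to 1685 without odor. Sustentacular cell genes of the AD set summed to 1623 to 1985 CPM with the mixture and 1483 to 1784 with decanal. Their no-odor range was 2063 to 2128 CPM. Neutrophil genes of that set summed to 46.2 to 81.3 CPM with acetophenone, against 90.3 to 189 without odor. None of these marker genes was at 0 in a group. The part of these shifts in the receptor values below was not tested.

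Breadth was counted over 9 comparisons, each odor against the no-odor libraries of its set, with a gene called at an adjusted p under 0.05 (edgeR's quasi-likelihood test, Benjamini-Hochberg over all genes of the set). The mixtures repeat components that were also counted alone, and the comparisons of a set share its no-odor libraries. The 9 comparisons are therefore not 9 separate odors. Of 790 receptor genes tested in all 3 sets, 458 were called higher in no comparison and 332 in at least 1. Olfr110 and Olfr502 were called higher in 8 comparisons and the other 7 members in 7, and no receptor gene reached all 9. With all 36 libraries in 1 fit Olfr110 was called in 5, and without FM no-odor replicate 3 in 6. With 1 library left out, Olfr1110, Olfr1126, Olfr214, Olfr30 and Olfr47 were also called in as few as 6 comparisons, whereas Olfr13, Olfr1463 and Olfr502 did not fall under 7 in any setting tried. The 9 were not the whole of the genes at that breadth: Olfr332, Olfr477, Olfr876, Olfr476, Olfr913 and Olfr491, which were not among them, were also called higher in 7, by a median of 1.81 to 3.99 log2 over the comparisons, against 1.37 to 3.23 over the 9 genes. Just outside came 13 receptor genes with 6 comparisons, among them Olfr353 and Olfr1116. Over the 81 pairs of a member and a comparison, 65 were called higher and 1 lower. The members were chosen on these values, so their counts, in the main fit and in the refits, are a description and no test.

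**Figure D1:**
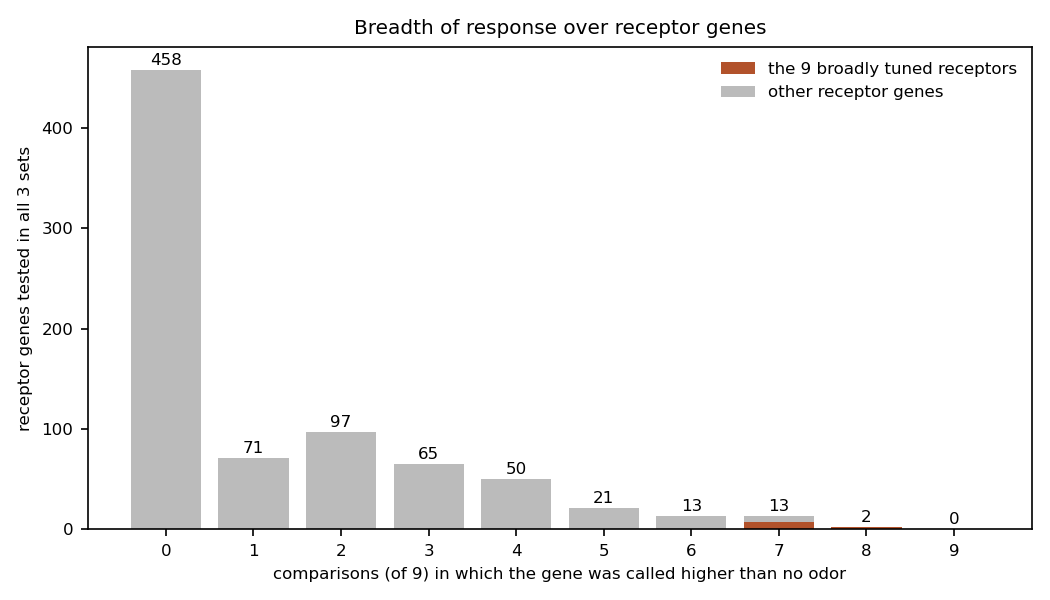
Number of receptor genes tested in all 3 sets (vertical axis, count) by the number of the 9 odor comparisons in which the gene was called higher than no odor (horizontal axis). Colored parts of the bars are the 9 broadly tuned receptors, which fill 7 of the 13 genes at 7 comparisons and both genes at 8.

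The count of members called higher differed between odors. Acetophenone raised 7 of the 9, beside 12.7% of the receptor genes tested, and decanal 3 (7.6%), with 1 lower (6.68% of receptor genes lower). The AD mixture raised 7 (13.2%). Octanal and the OC mixture each raised all 9, beside 21.4% and 23.1% of receptor genes, and cis-3-hexenol raised 5 (7.92%). Floral and mint each raised 8, beside 9.68% and 12.8%, and the FM mixture raised all 9 (11.9%). Nothing is read from these counts, since the genes were chosen on them. The median log2 change over the 9 was 1.97 with the AD mixture, 2.89 with acetophenone and -0.09 with decanal. It was 2.94 for the OC mixture, 3.30 for octanal and 1.63 for cis-3-hexenol. In the FM set it was 2.12 with the mixture, 2.37 with floral and 2.01 with mint. The median over all genes lay between -0.05 and 0.05 in each comparison.

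**Figure D2:**
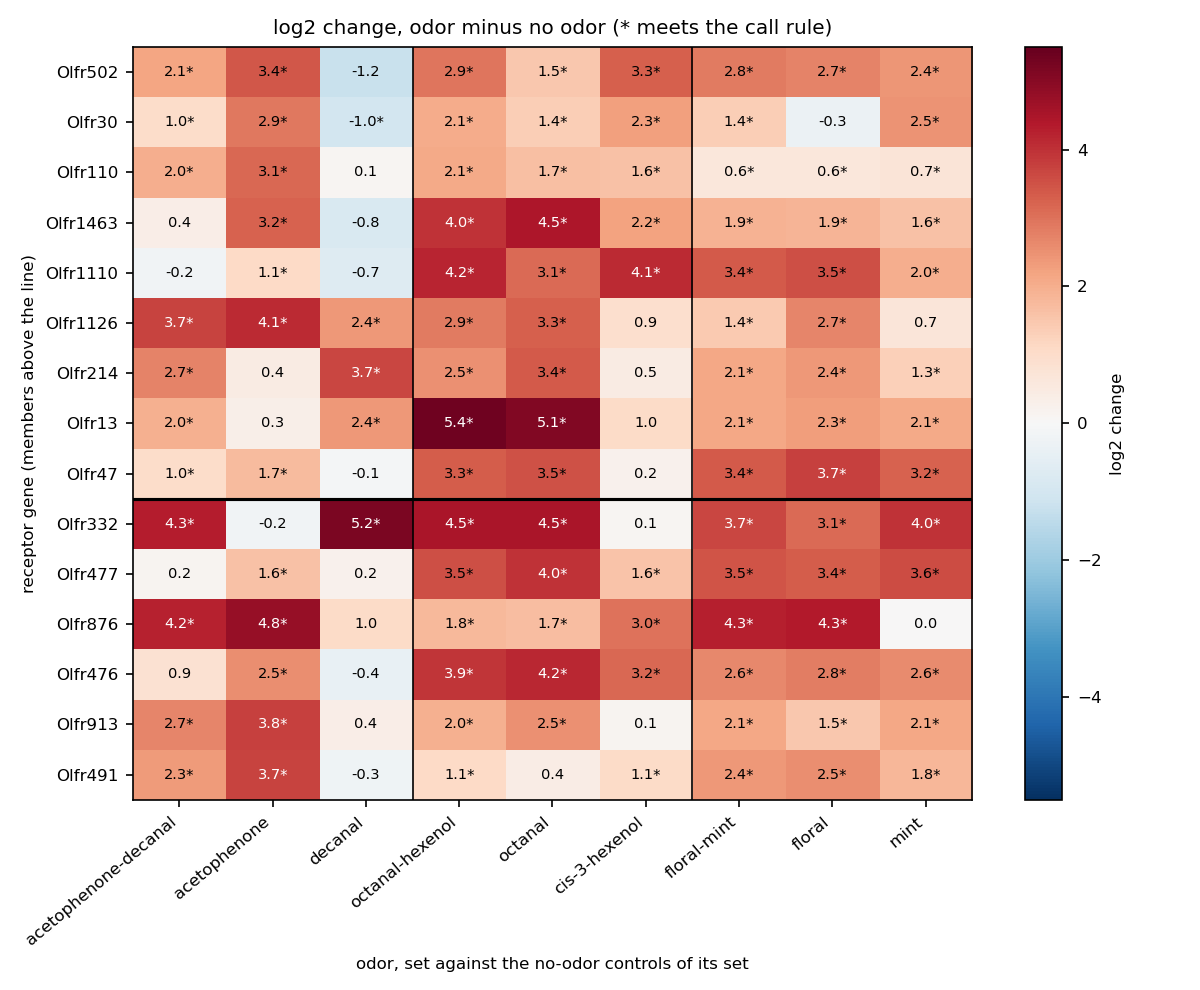
Log2 change of the 9 receptor genes (rows above the line) and of the 6 other receptor genes as broad as most of them (below it) in each odor group against the no-odor libraries of its set (columns, color scale in log2 units; an asterisk marks a called difference). Above the line, decanal and cis-3-hexenol are the columns with the fewest called increases, 3 and 5, and Olfr30 with decanal is the sole called decrease.

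Acetophenone, an aromatic ketone, and decanal, a straight-chain aldehyde, divided the receptors. The direct comparisons between odor groups do not use the no-odor libraries, though they use the odor libraries on which the genes were chosen. Acetophenone was higher than decanal in 7 members and lower in 2, so that all 9 differed. Of the 868 receptor genes tested in the set, 21.2% were higher and 9.68% lower. The median log2 difference over the members was 1.81, against 0.14 over receptor genes and -0.01 over all genes.

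Olfr1463 stood at 109, 288 and 75.1 CPM with acetophenone and at 7.26, 9.3 and 11.1 CPM with decanal, against 16.1, 15.7 and 17.8 CPM without odor. The mixture gave 28.3, 22.1 and 13.1 CPM. Every acetophenone library was far above the rest, every decanal library was below every no-odor library, and the mixture libraries straddled the no-odor ones. The acetophenone-to-decanal difference was 4.09 on the log2 scale (SE 0.436, adjusted p 2.21e-05, edgeR).

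Olfr30 kept the same order of odorants. Its levels were 116, 135 and 79.6 CPM with acetophenone and 7, 10.2 and 4.98 CPM with decanal, against 15.4, 16.8 and 12.3 CPM without odor. Decanal libraries all lay under the no-odor libraries, and this was the sole pair of a member and an odor called lower. Acetophenone exceeded decanal by 3.90 log2 (SE 0.296, adjusted p 1.64e-06, edgeR), and the mixture, at 42.4, 22.2 and 25.9 CPM, lay above decanal (2.03, SE 0.285, adjusted p 0.00357) and below acetophenone (-1.87, SE 0.264, adjusted p 0.000233).

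Olfr502, the gene without the complete motif, was at 15.2, 15.5 and 18.9 CPM with acetophenone and at 0.971, 0 and 0.986 CPM with decanal, against 1.75, 1.1 and 1.74 CPM without odor. The acetophenone libraries were close together and stood clear of the others, and in decanal replicate 2 the gene had no count. The fitted difference, 4.65 log2 (SE 0.548, adjusted p 4.4e-05, edgeR), rests on these low decanal counts. With the mixture it had 8.48, 6.43 and 5.57 CPM, called above decanal (3.37, SE 0.54, adjusted p 0.011), a call lost with only the 6 libraries compared in the fit (adjusted p 0.118; 1.08e-12 to 0.118 over the settings tried). It was also called below acetophenone (-1.28, SE 0.442, adjusted p 0.0475), but at the threshold: that call was lost when any 1 of the 9 libraries of the mixture, acetophenone or no-odor groups was left out, with values of -1.47 to -1.15 and adjusted p of 0.051 to 0.14.

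Olfr110 was at 69.2, 226 and 90.1 CPM with acetophenone and 17.8, 12.6 and 16.9 CPM with decanal, against 11.1, 14.3 and 18.4 CPM without odor. Decanal and no-odor libraries overlapped, while acetophenone libraries were all higher, replicate 2 most of all. The difference was 3.03 log2 (SE 0.383, adjusted p 7.45e-05, edgeR). The mixture, at 77.5, 50.1 and 44.5 CPM, overlapped acetophenone. It was called lower than acetophenone (-1.16, SE 0.352, adjusted p 0.0265), and this was lost without acetophenone replicate 2 (-0.47, adjusted p 0.181), mixture replicate 2 (-1.08, adjusted p 0.084) or mixture replicate 3 (-1.01, adjusted p 0.101); over the settings tried, the adjusted p ran from 0.000238 to 0.181.

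Olfr1110 and Olfr47 preferred acetophenone by a smaller margin. Olfr1110 was at 23.8, 27.6 and 15.8 CPM with acetophenone and 4.45, 8.69 and 6.01 CPM with decanal, against 10.5, 10.3 and 11 CPM without odor (acetophenone against decanal 1.81, SE 0.266, adjusted p 0.000225, edgeR). Olfr47 was at 8.02, 16 and 9.78 CPM with acetophenone and 3.73, 2.81 and 3.1 CPM with decanal, against 2.78, 4.76 and 2.74 CPM without odor (1.81, SE 0.313, adjusted p 0.000769). In both genes acetophenone libraries stood clear of the no-odor libraries; decanal libraries lay below them in Olfr1110 and overlapped them in Olfr47. With the mixture, Olfr1110 had 6.57, 10.8 and 10.4 CPM and was lower than with acetophenone (-1.27, SE 0.259, adjusted p 0.00277). The mixture levels of Olfr47, 7.65, 4.91 and 7.98 CPM, were not called different from either component. Every mixture library of Olfr47 lay below every acetophenone library and above every decanal library, which is a description and no call.

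Olfr13 and Olfr214 showed the opposite preference. Olfr13 was at 2.35, 7.59 and 5.86 CPM with acetophenone and 16.4, 25.2 and 23.9 CPM with decanal, against 4.01, 6.26 and 2.26 CPM without odor. Olfr214 was at 3.11, 2.16 and 4.21 CPM with acetophenone and 35.4, 22.6 and 31.9 CPM with decanal, against 3.1, 1.85 and 2 CPM without odor. For both, acetophenone libraries overlapped the no-odor libraries and decanal libraries were all higher. Acetophenone was lower than decanal in Olfr13 (-2.05 log2, SE 0.385, adjusted p 0.00133) and in Olfr214 (-3.24, SE 0.301, adjusted p 8.4e-06, edgeR). With the mixture Olfr13 had 12.9, 16.3 and 19.9 CPM and Olfr214 20.1, 15.3 and 10.7 CPM, higher than with acetophenone by 1.64 (SE 0.382, adjusted p 0.00631) and 2.28 (SE 0.295, adjusted p 0.000125).

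Olfr1126 was the sole member called higher than no odor with both odorants, by calls on which the genes were chosen. Its levels were 8.15, 17.3 and 15.1 CPM with acetophenone and 4.7, 3.83 and 3.6 CPM with decanal, against 0.954, 0.661 and 0.695 CPM without odor. The 3 groups did not overlap, and acetophenone was the higher by 1.74 log2 (SE 0.268, adjusted p 0.000321, edgeR). The mixture, at 10.8, 8.58 and 11.1 CPM, overlapped acetophenone (-0.41, SE 0.255, adjusted p 0.272); without acetophenone replicate 1 the mixture was called lower (-0.67, adjusted p 0.0448).

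**Figure D3:**
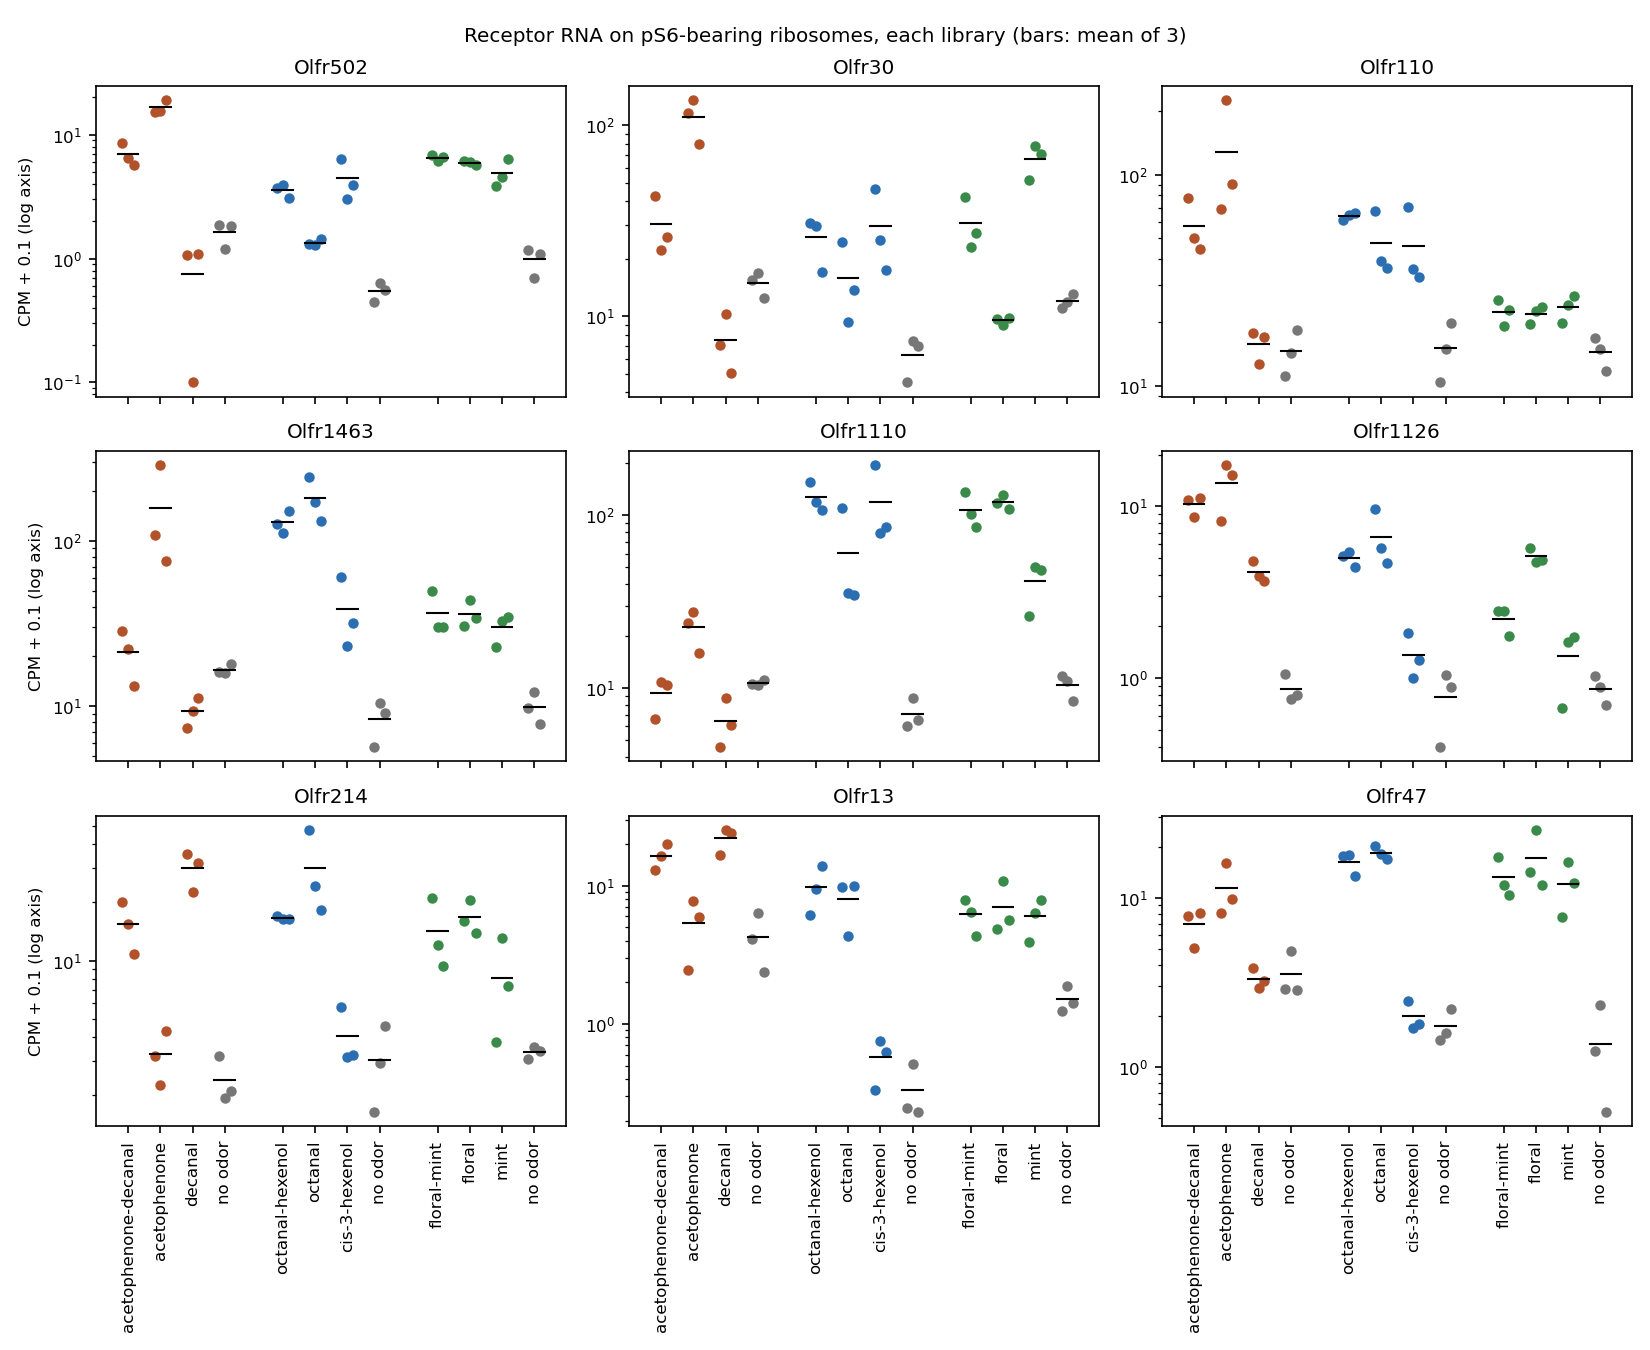
Level of each of the 9 receptor genes in every library (TMM-scaled CPM with 0.1 added, log axis), grouped by odor within each set; points are libraries and the horizontal bars are group means. In the AD set Olfr13 and Olfr214 are high with decanal and the mixture, and Olfr30, Olfr110, Olfr502 and Olfr1463 with acetophenone.

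Set against acetophenone, the AD mixture was higher in 2 members and lower in 5, beside 5.53% of receptor genes higher and 12.4% lower. Set against decanal, it was higher in 2 and lower in none, beside 5.41% higher and 0.691% lower. The mean level of every member with the mixture lay between its means with the 2 components. The ratio of the mixture mean to the mean of both components had a median of 0.796 and ran from 0.254 in Olfr1463 to 1.21 in Olfr13. In Olfr1463 the mixture was called below acetophenone (-2.89, SE 0.406, adjusted p 0.000221, edgeR). Against decanal, Olfr1126 (1.33, adjusted p 0.0639) and Olfr110 (1.86, adjusted p 0.0625) missed the threshold, although every mixture library was above every decanal library. The libraries were apart in the same way in Olfr47 (1.09, adjusted p 0.567) and Olfr1463 (1.19, adjusted p 0.836), also not called. In Olfr214 every mixture library was below every decanal library, again without a call (-0.963, adjusted p 0.517). How many of all receptor genes had libraries apart in these groups was not counted. The separations are therefore a description and do not stand in for a call. Olfr1126 and Olfr110 passed the threshold without acetophenone replicate 1, when 4 members were called (adjusted p 0.00887 and 0.0175), and Olfr110 also without acetophenone replicate 2 (adjusted p 0.00156).

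The OC set compared octanal, a straight-chain aldehyde shorter than decanal, with cis-3-hexenol, an unsaturated alcohol. Octanal was higher than cis-3-hexenol in 5 members, Olfr13, Olfr47, Olfr214, Olfr1126 and Olfr1463, and lower in 1, Olfr502, beside 15.9% of the 859 receptor genes higher and 12.1% lower. The median difference was 2.24 log2 over the members and -0.45 over receptor genes.

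Olfr47 gave the clearest split. It was at 20, 18 and 16.8 CPM with octanal and 2.36, 1.6 and 1.7 CPM with cis-3-hexenol, against 1.34, 1.48 and 2.1 CPM without odor. All octanal libraries were far above the others, and cis-3-hexenol overlapped no odor. The octanal-to-hexenol difference was 3.27 log2 (SE 0.231, adjusted p 3.06e-07, edgeR).

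Its closest relative among the 9, Olfr13, was at 9.71, 4.25 and 9.89 CPM with octanal and 0.236, 0.657 and 0.532 CPM with cis-3-hexenol, against 0.149, 0.413 and 0.131 CPM without odor. These last levels rest on 2 to 7 counts per library. Octanal again stood apart, by 4.04 log2 over cis-3-hexenol (SE 0.465, adjusted p 6.43e-05, edgeR), and cis-3-hexenol overlapped no odor. In the AD set this pair of relatives went opposite ways: decanal was above acetophenone in Olfr13 and below it in Olfr47.

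Olfr214 was at 47.5, 24.1 and 18.2 CPM with octanal and 5.66, 3.08 and 3.14 CPM with cis-3-hexenol, against 1.54, 2.83 and 4.46 CPM without odor (octanal against cis-3-hexenol 2.92, SE 0.372, adjusted p 0.000177, edgeR). Olfr1126 was at 9.51, 5.61 and 4.59 CPM with octanal and 1.74, 0.904 and 1.17 CPM with cis-3-hexenol, against 0.297, 0.945 and 0.787 CPM without odor (2.37, SE 0.379, adjusted p 0.00116). In both, octanal libraries were above all others and cis-3-hexenol overlapped no odor. Olfr1463 was at 242, 171 and 132 CPM with octanal and 60.7, 23.1 and 31.6 CPM with cis-3-hexenol. Without odor it was lower than with either, at 5.55, 10.3 and 8.99 CPM. Its octanal libraries were all above its cis-3-hexenol libraries (2.24, SE 0.311, adjusted p 0.000362).

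Olfr502 ran the other way, at 1.2, 1.18 and 1.35 CPM with octanal and 6.27, 2.92 and 3.83 CPM with cis-3-hexenol, against 0.347, 0.531 and 0.459 CPM without odor. Its 3 groups did not overlap, and octanal was lower than cis-3-hexenol (-1.80, SE 0.334, adjusted p 0.00274, edgeR). Olfr1110 was at 111, 35.6 and 34.3 CPM with octanal and 196, 78.8 and 85.7 CPM with cis-3-hexenol, against 5.9, 8.62 and 6.43 CPM without odor. Olfr30 was at 24.4, 9.21 and 13.6 CPM with octanal and 46.1, 25.1 and 17.4 CPM with cis-3-hexenol, against 4.41, 7.32 and 6.89 CPM without odor. For these 2 genes the odor groups overlapped, replicate 1 being the highest library in each, and the differences were not called (-0.996, SE 0.394, adjusted p 0.0818, and -0.905, SE 0.362, adjusted p 0.0847). Both were called without octanal replicate 1, at -1.76 (adjusted p 0.00603) and -1.35 (adjusted p 0.0305).

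Olfr110 was at 67, 39 and 36 CPM with octanal and 70.1, 35.8 and 32.7 CPM with cis-3-hexenol, against 10.3, 14.9 and 19.7 CPM without odor. Its libraries with either odorant lay above the no-odor libraries, and the difference between the odorants was 0.04 log2 (SE 0.285, adjusted p 0.942, edgeR). It was the member with the smallest difference between these odorants.

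The OC mixture was not called different from octanal in any of the 9 genes by edgeR or by DESeq2, beside 1.28% of receptor genes higher and 0.0% lower. At an unadjusted p under 0.05 the count was 3 (edgeR). The share of receptor genes under that looser rule was not computed, so nothing is read from this count. Olfr502 had 3.61, 3.79 and 2.96 CPM with the mixture, 1.46 log2 above octanal (SE 0.334, unadjusted p 0.000456, adjusted p 0.372). Olfr1110 had 157, 120 and 108 CPM (1.09, SE 0.395, unadjusted p 0.0137, adjusted p 0.998). Olfr214 had 16.9, 16.4 and 16.3 CPM (-0.86, SE 0.339, unadjusted p 0.0222, adjusted p 0.998). The mixture libraries of Olfr502 were all above and those of Olfr214 all below the octanal libraries, while Olfr1110 overlapped. Without octanal replicate 1, Olfr1110 was called (1.90, adjusted p 0.0381). Against cis-3-hexenol the mixture was higher in 5 members and lower in none, beside 13.5% of receptor genes higher and 1.75% lower.

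Those 5 were also higher with octanal than with cis-3-hexenol, a comparison that uses the same cis-3-hexenol libraries. Olfr47 had 17.5, 17.8 and 13.4 CPM with the mixture, 3.10 log2 above cis-3-hexenol (SE 0.23, adjusted p 5.93e-07, edgeR). Olfr13 had 5.99, 9.4 and 13.7 CPM, 4.32 above (SE 0.466, adjusted p 5.54e-05), and Olfr1463 had 126, 112 and 151 CPM, 1.75 above (SE 0.306, adjusted p 0.00396). For Olfr214 the difference was 2.06 (SE 0.365, adjusted p 0.00428) and for Olfr1126, at 5.07, 5.32 and 4.31 CPM, 1.94 (SE 0.377, adjusted p 0.00704). The Olfr1126 call missed the threshold without cis-3-hexenol replicate 2 (1.76, adjusted p 0.0502), and Olfr110, at 60.8, 64.8 and 65.8 CPM with the mixture, was called without cis-3-hexenol replicate 1 (0.91, adjusted p 0.0329). Mixture means lay between those of the components in 6 members and above both in Olfr13, Olfr110 and Olfr1110; the ratio to the mean of the components had a median of 1.25 and ran from 0.976 to 2.3.

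Octanal and decanal are aldehydes of the same series that differ in chain length, but they were tested in different sets, so their values stand side by side without a test. Olfr13, Olfr214 and Olfr1126 were called higher than no odor with both, by 5.08, 3.37 and 3.30 log2 with octanal and by 2.38, 3.68 and 2.38 with decanal. Of the single odorants of the AD and OC sets, Olfr13 and Olfr214 were called only with these aldehydes. They stood at 0.332 and 0.444 with acetophenone and at 1.04 and 0.45 with cis-3-hexenol, none of these called. Olfr47 and Olfr1463 were called with octanal, at 3.49 and 4.46, and stood at -0.09 and -0.84 with decanal. Olfr30, Olfr110, Olfr502 and Olfr1110 were called with octanal, at 1.35, 1.67, 1.48 and 3.11, and stood at -1.01, 0.11, -1.22 and -0.73 with decanal. The 3 genes called higher with decanal were among the 4 not called with cis-3-hexenol, and the 5 called with cis-3-hexenol were among the 7 called with acetophenone. The choice of genes that could miss no more than 2 of 9 comparisons bears on both counts.

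In the FM set the floral and mint fragrances differed in Olfr30, Olfr1110 and Olfr1126. Floral was higher than mint in 2 members and lower in 1, beside 2.72% of the 847 receptor genes higher and 4.37% lower. Olfr30 was at 9.62, 8.94 and 9.68 CPM with floral and 51.5, 77.2 and 70.9 CPM with mint, against 10.9, 11.8 and 13 CPM without odor. Each floral library was below each no-odor library, although the floral value was not called, and the mint libraries were far above both. Floral was lower than mint by -2.82 log2 (SE 0.199, adjusted p 7.31e-07, edgeR).

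Olfr1110 was at 118, 131 and 109 CPM with floral and 26, 49.9 and 48.4 CPM with mint, against 11.7, 10.9 and 8.29 CPM without odor. Olfr1126 was at 5.65, 4.62 and 4.76 CPM with floral and 0.575, 1.52 and 1.63 CPM with mint, against 0.926, 0.789 and 0.598 CPM without odor. In Olfr1110 the 3 groups were apart, while in Olfr1126 mint overlapped no odor. Floral was higher than mint by 1.53 log2 in Olfr1110 (SE 0.213, adjusted p 0.00196) and by 2.01 in Olfr1126 (SE 0.312, adjusted p 0.00581, edgeR).

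The remaining 6 members were above no odor with both fragrances, which describes values they were chosen on. No difference between the fragrances was called in them. Olfr47 was at 14.1, 25.1 and 11.8 CPM with floral and 7.61, 16.2 and 12.1 CPM with mint, against 1.14, 2.22 and 0.439 CPM without odor. Olfr1463 was at 30.5, 43.7 and 34.1 CPM with floral and 22.7, 32.6 and 34.7 CPM with mint, against 9.72, 12.1 and 7.66 CPM without odor. In both genes the fragrance groups overlapped each other and stood clear of no odor (floral against mint 0.50, SE 0.352, and 0.27, SE 0.214). Olfr13 was at 4.75, 10.6 and 5.5 CPM with floral and 3.83, 6.27 and 7.75 CPM with mint, against 1.14, 1.77 and 1.32 CPM without odor (0.23, SE 0.317). Olfr502 was at 6.04, 5.91 and 5.54 CPM with floral and 3.78, 4.48 and 6.23 CPM with mint, against 1.07, 0.601 and 0.997 CPM without odor (0.28, SE 0.203). These too overlapped between fragrances and cleared the no-odor libraries.

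Olfr214 was at 15.9, 20.6 and 13.8 CPM with floral and 3.69, 13 and 7.24 CPM with mint, against 2.99, 3.46 and 3.31 CPM without odor. Its floral libraries were all above its mint libraries, but the difference was not called (1.06, SE 0.347, adjusted p 0.45, edgeR). Olfr110 was at 19.5, 22.5 and 23.7 CPM with floral and 19.8, 24.1 and 26.5 CPM with mint, against 16.8, 14.8 and 11.7 CPM without odor. The odor libraries were all above the no-odor ones by a narrow margin, and the fragrances differed by -0.10 log2 (SE 0.147).

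The FM mixture was higher than floral in 1 member and lower in none, beside 2.13% of receptor genes higher and 0.0% lower. Against mint it was higher in 1 and lower in 1, beside 1.3% higher and 0.826% lower. Olfr30, at 41.8, 23 and 27.2 CPM with the mixture, lay between its components, above floral (1.70, SE 0.195, adjusted p 0.000526, edgeR) and below mint (-1.12, SE 0.184, adjusted p 0.0232). Leaving out 1 library could lower the count against mint to 1. The Olfr30 call against mint was lost without mint replicate 2 or 3 or without mixture replicate 2 or 3, with values of -1.07 to -0.95 and adjusted p of 0.0699 to 0.219. Olfr1110, at 137, 102 and 85.3 CPM, was above mint (1.39, SE 0.213, adjusted p 0.0131); without mixture replicate 1 the value was 1.18 (adjusted p 0.0753). With all 36 libraries in 1 fit neither call against mint held, at an adjusted p of 0.837 for Olfr30 and 0.309 for Olfr1110. Olfr1126, at 2.35, 2.35 and 1.65 CPM, was lower than every floral library (-1.24, SE 0.292, adjusted p 0.24) and passed the threshold when mint replicate 1 was left out (adjusted p 0.0457), which made the count against floral 2. For the other 6 members the difference from either component ran from -0.38 to 0.81 and none was called. Mixture means were between the components in 7 members and above both in Olfr502 and Olfr1463, and the ratio to the component mean had a median of 0.989 and ran from 0.677 to 1.35.

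**Figure D4:**
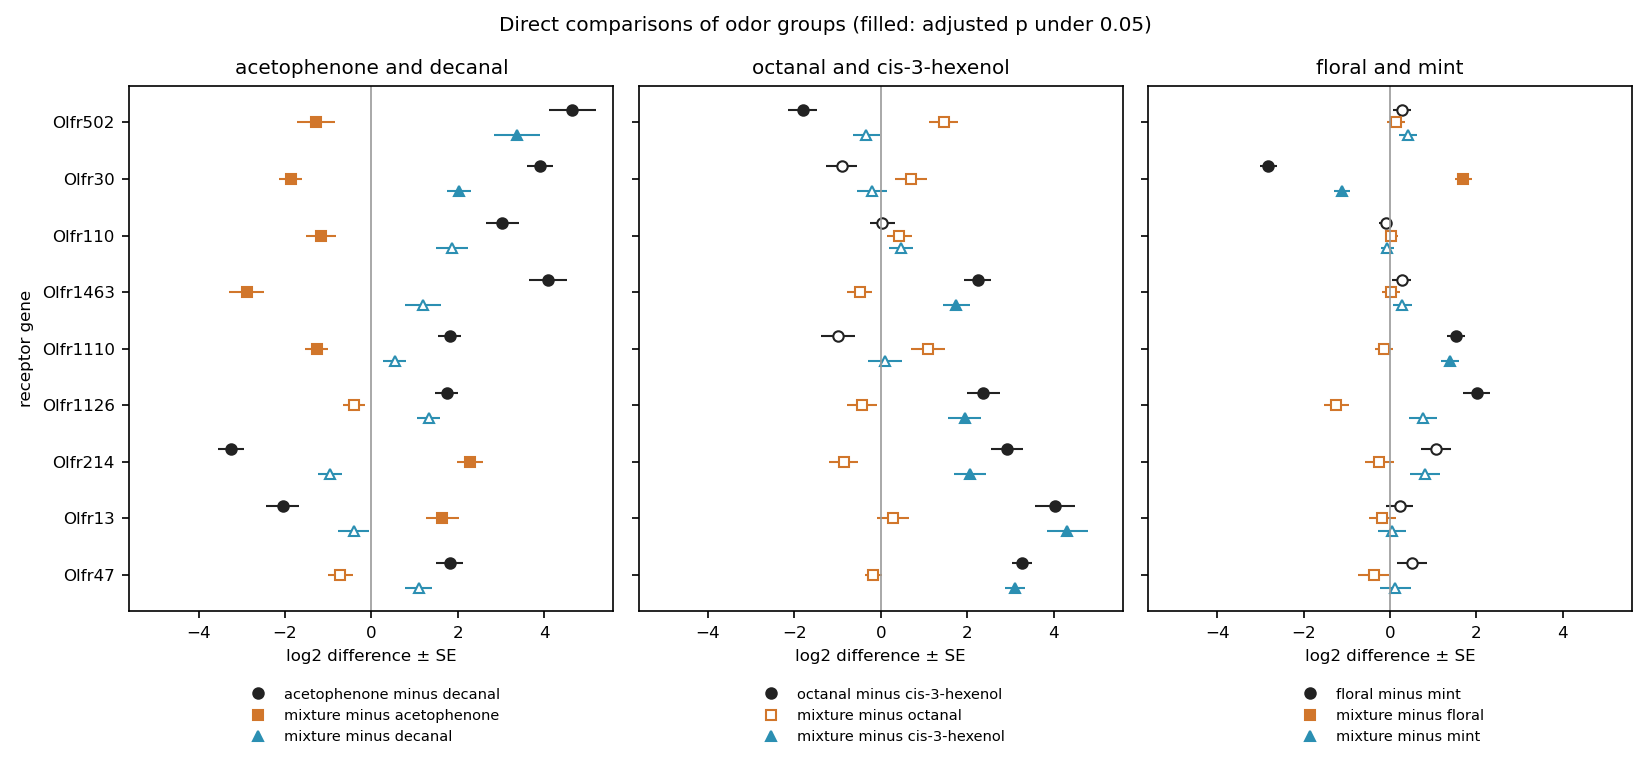
Log2 difference between odor groups of a set for each of the 9 receptor genes (mixture minus either component, and component minus component); filled symbols are called differences and open symbols are not. Over the 9 comparisons 35 of 81 differences were called, among them all 9 for acetophenone minus decanal and none for the OC mixture minus octanal.

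The profiles of the 9 genes across the odors were not alike. Over the 9 log2 changes against no odor, which share their no-odor libraries within a set, Pearson's r between members ran from -0.75 (Olfr214 with Olfr502, and Olfr214 with Olfr30) to 0.74 (Olfr30 with Olfr502). Olfr30 and Olfr502 shared 43.9% of residues and lay on different chromosomes. Olfr13 and Olfr47, the closest pair in sequence, had an r of 0.5. These are descriptions of 9 points with shared libraries. By the same measure over the receptor genes tested in all 3 sets, the profile most like Olfr110 was that of Olfr743 (r 0.95), most like Olfr502 that of Olfr1434 (0.946), most like Olfr1110 that of Olfr541 (0.979), and most like Olfr1126 that of Olfr922 (0.893). Olfr1018 was nearest to Olfr13 (0.964), Olfr121 to Olfr214 (0.915) and Olfr224 to Olfr30 (0.868). Olfr476 and Olfr477, which were just as broad, were nearest to Olfr1463 (0.934) and Olfr47 (0.92). Each of these r is the highest from a search over all those receptor genes, so its size is no test of likeness. Olfr541, Olfr224 and Olfr1434 were called higher in none of the 9 comparisons. Their median log2 changes were 0.0442, -0.00737 and -0.224, so no shared response is read from their r.

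Genes that carry the signal of these receptors were read from the same libraries. These genes, and the trafficking and activity-linked genes below, were listed with earlier results of these data known. Their counts are therefore a description and no test. Over 9 comparisons with no odor, the 13 genes of the transduction cascade gave 81 called increases and 0 decreases in 117 pairs (edgeR). With octanal and with the OC mixture all 13 rose, beside 17.9% and 17.7% of all genes, and with cis-3-hexenol 9 rose (2.58%). With acetophenone 11 rose (4.22%), with decanal 6 (10.8%) and with the AD mixture 6 (10.9%). Floral raised 5 (8.7%), mint 10 (7.1%) and the FM mixture 8 (6.42%). Stoml3, a stomatin-like protein of olfactory cilia, rose in all 9 comparisons, by 0.62 to 1.61 log2. Omp, the marker protein of mature olfactory neurons, rose in 8 (0.36 to 1.27 over the 9), as did the channel subunit Cnga2 (0.27 to 2.02) and the G protein beta subunit Gnb1 (0.25 to 0.78). The mature-neuron markers above are all members of this list, so they are not independent of it. When libraries were scaled to the median receptor gene, 52 of the 117 pairs were called, and that scaling put the median of all genes at -0.50 log2 with the OC mixture and at -0.46 with cis-3-hexenol.

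Of the 3 genes that bring receptors to the cell surface, Rtp2 rose in all 9 comparisons (0.33 to 1.75 log2), Reep1 in 8 (0.26 to 1.32 over the 9) and Rtp1 in 5 (0.18 to 1.46), so that 22 of 27 pairs were called, all higher. All 3 rose with acetophenone, octanal, the OC mixture, mint and the FM mixture, 2 with decanal, the AD mixture and cis-3-hexenol and 1 with floral, beside the shares of all genes given above, 2.58 to 17.9%. Of 9 activity-linked genes, the transcription factors Fosb (1.92 to 4.04) and Nr4a1 (1.49 to 3.81) and the adhesion protein Kirrel2 (0.93 to 2.40) rose in all 9 comparisons. The calcium-binding protein S100a5 rose in 6 (0.08 to 2.21 over the 9). The others of the list rose in fewer: Npas4 in 4 (0.57 to 4.08) and Fos in 3 (0.25 to 1.33). Egr1 rose in 2 (-0.57 to 1.26), and Junb (-0.38 to 0.11) and Arc (-1.23 to 0.35) in 0. Of the 9, 6 rose with decanal, octanal and the OC mixture, 5 with floral, mint and the FM mixture and 3 with acetophenone, the AD mixture and cis-3-hexenol, beside the same shares. In all, 42 of 81 pairs were higher and 2 lower, both of these in Arc, with decanal and with the AD mixture (10.4% of all genes lower). Scaling to the median receptor gene left 17 of the 27 trafficking pairs and 35 of the activity-linked pairs higher, and 3 of the activity-linked pairs lower. With decanal, where 6 of the 9 receptors were not called higher, 6 of the 9 activity-linked genes rose and 1 fell, beside 10.8% of all genes higher and 11.5% lower.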

How the data were processed

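RNA bound to ribosomes bearing phosphorylated S6 was sequenced from mouse olfactory epithelium as stranded poly(A) libraries, per the labels' protocols. The authors deposited estimated counts per gene identifier in 1 table per set, not normalized, with 11.1 to 16.4% of identifiers fractional per library. Per the submitters' processing notes, STAR 2.7.10b, Salmon 1.10.1, R 4.4.2 and build GRCm39 were used; which step gave the counts and which annotation was used were not given in the sources used here. The estimated counts were rounded to whole numbers. Symbols came from GENCODE vM21 by gene identifier, matching 52029 of 57010; no coordinates were used, because that annotation is on GRCm38. Receptor genes were all symbols of the form Olfr followed by a number.

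Each set was fitted alone, since the labels name the set as the batch: edgeR 4.0.16 (R 4.3.3), filterByExpr with a minimum count of 10 and total of 15, TMM scaling, the quasi-likelihood test over the 12 libraries of 4 groups, two-sided, Benjamini-Hochberg over all genes tested, called at an adjusted p under 0.05 and with a prior count of 0.125. CPM values of single genes are TMM-scaled. The summed CPM of cell type markers were scaled by the library total alone, without TMM. Differences are the group named first minus the group named second. Where libraries of different groups are said not to overlap, how often this held over all genes was not counted. Such statements describe the libraries and are no test. The 9 genes and the gene lists (transduction cascade, receptor trafficking, activity-linked genes, cell type markers) were chosen with earlier results of these data known. All 9 genes are named. Others were named by rule: the 6 other receptor genes called in the most comparisons and the receptor of most like profile for each member. Of each list, up to 4 genes called in the most comparisons were named, and the whole of the activity-linked list. Pairs of libraries of a group differed by more than sampling noise, so none was treated as a duplicate. The procedure was tested on simulated data: of genes changed 4-fold, 74% were recovered for acetophenone against no odor, 88% for octanal and 98% for floral. Alternatives were DESeq2 1.42.0, RLE scaling, scaling to the median receptor gene, no filter on low counts, a replicate block, the 6 libraries of a comparison alone, all 36 libraries in 1 fit, and leaving out each library. Replicate numbers were not said to mark shared animals or days.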

Additional observations from a re-analysis of the deposited data

How the results depend on the processing

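Of the 35 differences between odor groups called among the 9 genes, 35 stayed called in the same direction with DESeq2, with RLE scaling and with no filter on low counts, 33 with scaling to the median receptor gene, 33 with all 36 libraries in 1 fit, 32 with the replicate block and 31 with only the 6 libraries compared. Leaving out 1 library lost 5 of them and reversed 0.

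The number called for the AD mixture against decanal was 4 with DESeq2, 6 with no filter and 4 with all 36 libraries in 1 fit, against 2 in the main setting. For the OC mixture against octanal it was 3 with no filter, and for the FM mixture against floral 2 with DESeq2, with no filter and with only the 6 libraries compared. For the FM mixture against mint it was 1 with the replicate block, 0 with only the 6 libraries compared and 0 with all 36 in 1 fit. The transduction cascade gave 52 called pairs with scaling to the median receptor gene, which moved the median of all genes by over 0.1 log2 in 9 of the 18 comparisons. The cause of these shifts was not tested.

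With libraries left out in turn, the counts ran from 2 to 4 for the AD mixture against decanal, 0 to 1 for the OC mixture against octanal, 1 to 2 for the FM mixture against floral and 1 to 2 for the FM mixture against mint. The pairs called higher than no odor ran from 61 to 66, and were 60 with all 36 libraries in 1 fit. The genes were chosen on the values against no odor, so these counts of pairs are a description.

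Differences near 0 that were not called changed sign. Under receptor scaling those that did were the FM mixture against floral in Olfr110 (-0.09) and Olfr1463 (-0.1) and against mint in Olfr13 (-0.02). With a library left out, the FM mixture against floral ran from -0.07 to 0.13 in Olfr110, -0.35 to 0 in Olfr1110, -0.4 to 0.26 in Olfr13, -0.27 to 0.18 in Olfr1463 and -0.63 to 0.01 in Olfr47. Against mint it ran from -0.18 to 0.03 in Olfr110, -0.19 to 0.27 in Olfr13 and -0.13 to 0.41 in Olfr47, and floral against mint from -0.21 to 0.45 in Olfr13. The OC mixture against cis-3-hexenol ran from -0.11 to 0.66 in Olfr1110, -0.45 to 0.29 in Olfr30 and -0.53 to 0.05 in Olfr502. The OC mixture against octanal ran from -0.05 to 0.54 in Olfr13, and octanal against cis-3-hexenol from -0.28 to 0.47 in Olfr110.

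Libraries of the same replicate number did not deviate together: over 18 pairs per set, r ran from -0.0955 to 0.112, -0.0814 to 0.187 and -0.194 to 0.106 in the AD, OC and FM sets, and 4, 5 and 0 of 12 libraries correlated best with their own number. The replicate block raised the number called for octanal against cis-3-hexenol to 7, from 6, by adding Olfr1110; it was 8 with no filter and 8 with all 36 libraries in 1 fit, which added Olfr1110 and Olfr30. Low counts limit Olfr13, Olfr502 and Olfr1126 without odor, where a library held as few as 2 counts.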
